A study of Mus musculus with 11 samples.

Results

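The genes described here are 148 solute carrier (SLC) genes whose RNA was well represented in ribosome pulldowns from spinal cord microglia. They are the rows of the count table whose mouse symbol is Slc followed by a digit, pseudogenes left out, with a mean of 500 or more raw counts over the 11 libraries. They were thus chosen by their level over both genotypes together and not by the difference between them. Of 374 such rows, 148 met the limit, 155 had counts but a lower mean, and 71 stood at 0 in every library. The members belong to 44 SLC families, and 4 of them are not carriers but share part of a symbol (Slc9a3r1, Slc9a3r2, Slc4a1ap and Slc7a6os). Their mean counts ran from 517.2 for Slc25a35 to 24579.3 for Slc7a8.

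The libraries came from the spinal cord of healthy female C57BL/6 RiboTag mice, in which Cre recombination tags a ribosomal protein so that ribosome-bound RNA can be pulled down. The 5 cKO libraries (cKO2, cKO4, cKO5, cKO6 and cKO7) were from mice labelled Kdm6a cKO, in which Tmem119-Cre/ERT2 also deleted Kdm6a, the gene of an X-linked histone H3K27 demethylase. The 6 WT libraries (WT8, WT9, WT13, WT15, WT16 and WT17) were from mice labelled wildtype that carried the RiboTag and the same Cre, which is driven by the promoter of the microglial gene Tmem119 and depends on tamoxifen. The age of the mice, the tamoxifen schedule, the deleted exons and whether each library was 1 animal are not stated in the labels. The p-values therefore cover only how these libraries vary.

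Solute carriers are membrane proteins that move amino acids, sugars, ions, metals, vitamins, nucleotides and organic acids across the plasma membrane, the lysosome, the Golgi and the inner mitochondrial membrane. In microglia they feed a lysosome-rich, phagocytic cell. In astrocytes and neurons other members clear glutamate, GABA and glycine from synapses and set the chloride gradient, so a pulldown that carries over RNA of those cells also carries their carriers.

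Library totals ran from 28620584 to 36259520 counts in cKO and from 32768942 to 40943004 counts in WT. Kdm6a stood at 6.31 ± 1.53 CPM (counts after scaling to equal library sizes) in cKO (SD, n = 5) and at 9.59 ± 1.87 CPM in WT (SD, n = 6). Its log2 fold change of -0.61 did not pass (edgeR adjusted p = 0.193) and the groups overlapped, so the deleted gene did not check the labels here. The microglial marker Cx3cr1 averaged 6478.9 CPM in cKO and 5694.4 CPM in WT. The libraries WT13, WT16 and WT17 had the highest mean log2 CPM over the pooled neuronal, astrocytic and oligodendrocyte markers, at 6.27, 6.02 and 6.35 against 5.75 to 5.96 in the other 8.

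Of the 148 members, 8 passed an adjusted p of 0.05 in edgeR's quasi-likelihood test over all 16025 genes, and these were 4 higher and 4 lower in cKO. The share was 5.41%, beside 4.29% of all genes tested (1.86% higher and 2.43% lower) and 7.30% of the 8042 genes tested with a mean of 500 or more counts (3.56% higher and 3.74% lower), so it was near the background. The median log2 fold change (cKO over WT) was -0.02 over the members, -0.01 over all genes and 0.04 over the genes of like level. An unadjusted p under 0.05 was reached by 39 members, or 26.4%, against 27.4% of the genes of like level. The 5 cKO and 6 WT values did not overlap for 8 members, where 4.16% of all genes and 6.62% of the genes of like level had no overlap. The summed level of the members was 11476.3 to 12012.9 CPM in cKO and 11181.7 to 11836.8 CPM in WT, so the summed ranges overlapped and the calls were of single genes. DESeq2 called 14 members, or 9.46%, beside 9.30% of all genes. Leaving out WT15 gave 13, or 8.78%, beside 5.98% of all genes. Leaving out cKO4, cKO5 or WT16 gave 5 members each, or 3.38%, beside 2.90%, 2.67% and 2.99% of all genes. Scaling by library totals alone gave 11, or 7.43% beside 5.02% of all genes, of which 2 were higher and 9 lower, in place of 4 and 4. For these alternatives the share of genes of like level is not given, so a gap to all genes may reflect level.

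**Figure D1:**
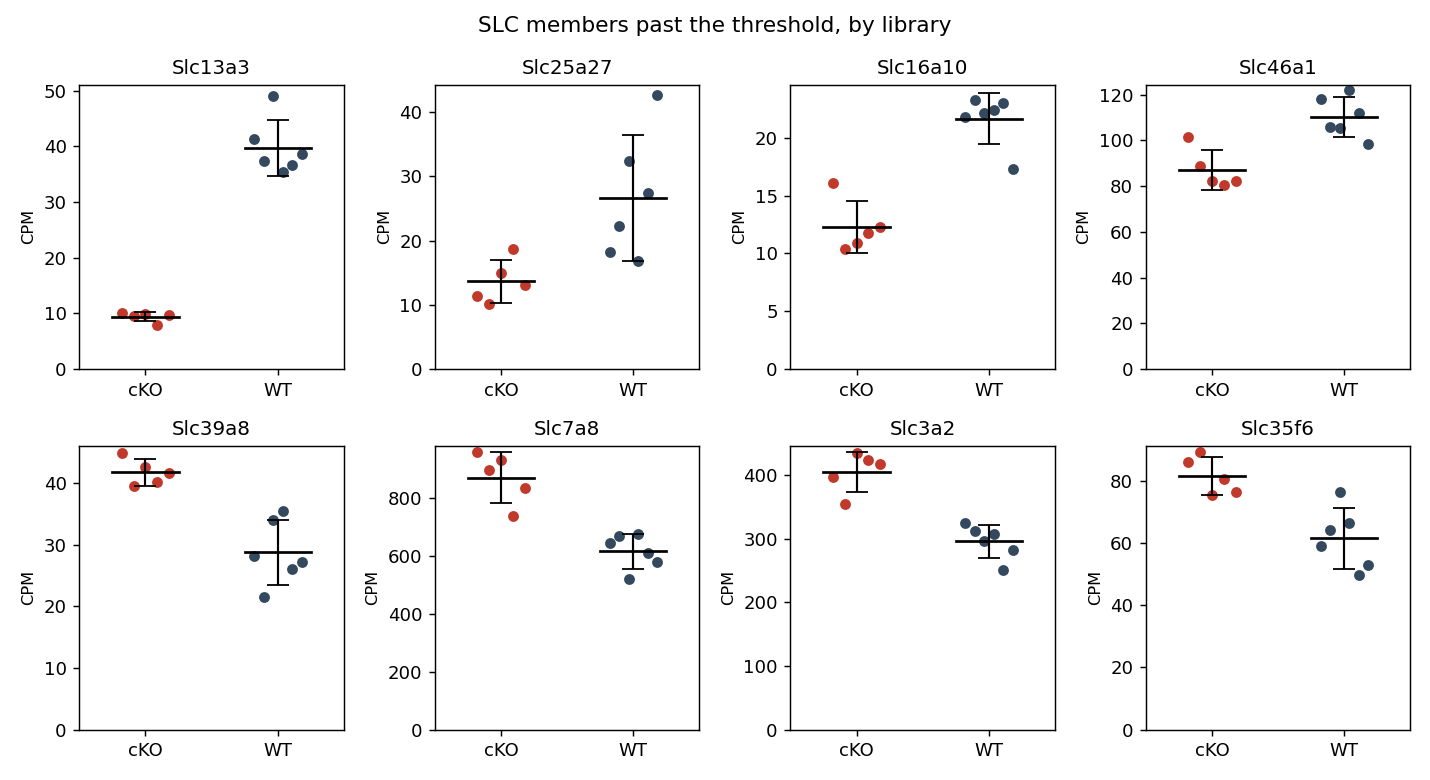
Level in CPM (y axes, linear from 0) of the 8 members past the threshold, 1 point per library, with cKO in red on the left and WT in blue on the right; bars give the mean and SD (5 cKO and 6 WT libraries). Slc13a3 lies between 7.97 and 9.98 CPM in cKO and between 35.36 and 48.99 CPM in WT, the largest fold difference of the 8.

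Slc13a3 fell the most. It encodes a sodium-coupled carrier of dicarboxylates such as succinate and alpha-ketoglutarate, and lies on chromosome 2 (165405028 to 165473230, minus strand, mm10). It had 9.98, 9.45, 9.87, 7.97 and 9.75 CPM in the 5 cKO libraries, while the 6 WT libraries ran from 35.36 CPM through a median of 37.97 CPM to 48.99 CPM. The highest cKO library was thus well under the lowest WT library. The means were 9.40 ± 0.826 CPM in cKO and 39.7 ± 4.98 CPM in WT, a level 4.22-fold lower in cKO, with a log2 fold change of -2.08 (SE 0.15, edgeR adjusted p = 3.2e-09). It passed in each of the 21 alternatives, and without WT13, WT16 and WT17 its log2 fold change was -2.02. It was a member through the WT libraries, since its mean raw count was 298.4 in cKO and 1452.8 in WT.

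The sequence around the start of Slc13a3 is shown as the promoter of the member with the largest difference. It comes from RefSeq (GRCm38.p6, chr2:165473148-165473447, minus strand), runs 5′ to 3′ from 250 bases before the start to 50 after it, and has an E-box (CACGTG, which reads alike on both strands) in capitals at position -154 from the start.
Slc13a3: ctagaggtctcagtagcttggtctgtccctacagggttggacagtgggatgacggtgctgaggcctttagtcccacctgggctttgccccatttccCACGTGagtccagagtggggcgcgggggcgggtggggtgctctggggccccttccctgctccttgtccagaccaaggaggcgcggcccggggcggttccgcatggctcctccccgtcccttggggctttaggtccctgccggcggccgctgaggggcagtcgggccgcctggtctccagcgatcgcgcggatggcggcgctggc
The stretch holds 22 CpG dinucleotides, against a median of 7 over all 32851 promoters of this length, and 76.9% of them have fewer. The E-box letters are in 7.2% of all those promoters, so the match is a description and not a site.

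Slc7a8 and Slc3a2, the members with the highest levels per kb of exon, both rose. Slc7a8 is the light chain LAT2, which exchanges neutral amino acids, and Slc3a2 is the heavy chain 4F2hc (CD98), which carries LAT2 and several other light chains to the plasma membrane. Slc7a8 (chromosome 14, 54722209 to 54781946, minus strand) had 955.7, 894.2, 928.3, 735.3 and 833.5 CPM in cKO, while WT ran from 518.2 through a median of 627.3 to 674.3 CPM. Every cKO library stood above every WT library. The means were 869.4 ± 87.8 CPM in cKO and 615.1 ± 59.7 CPM in WT, 1.41-fold higher in cKO, with a log2 fold change of 0.50 (SE 0.08, edgeR adjusted p = 0.000683).

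Slc3a2 (chromosome 19, 8706882 to 8723369, minus strand) had 395.8, 353.5, 434.2, 422.9 and 416.6 CPM in cKO, while WT ran from 250.3 through a median of 301.7 to 324.3 CPM. Again the groups did not overlap. The means were 404.6 ± 31.8 CPM in cKO and 295.4 ± 26.2 CPM in WT, 1.37-fold higher in cKO, with a log2 fold change of 0.45 (SE 0.08, edgeR adjusted p = 0.00132). Both genes passed in all 21 alternatives, and without WT13, WT16 and WT17 their log2 fold changes were 0.39 and 0.36. Microglial markers moved the same way: 8 of 14 rose (57.1%, beside 1.86% of all genes) and none fell, with a median log2 fold change of 0.31. Their summed level was 55660.7 to 58222.8 CPM in cKO and 50179.4 to 52968.8 CPM in WT8, WT9 and WT15. It was lower in WT13 (42845.6 CPM), WT16 (45488.6 CPM) and WT17 (40382.5 CPM), so the marker rise was not even across WT. No marker was at 0. The part of these markers in the result was not tested. In such bulk pulldowns fewer cells of a type and less RNA per cell cannot be told apart.

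The promoters of this pair are shown because the 2 chains form 1 carrier and moved together. Both come from RefSeq (GRCm38.p6, 250 bases before to 50 after the start, minus strand), Slc7a8 at chr14:54781837-54782136 and Slc3a2 at chr19:8713848-8714147, a RefSeq start that lies inside the longer GENCODE gene. Capitals mark letters of the kind bound by ETS factors: GAGGAA, found as TTCCTC on the other strand, at position -194 in Slc7a8, and CGGAAG at position -208 in Slc3a2.
Slc7a8: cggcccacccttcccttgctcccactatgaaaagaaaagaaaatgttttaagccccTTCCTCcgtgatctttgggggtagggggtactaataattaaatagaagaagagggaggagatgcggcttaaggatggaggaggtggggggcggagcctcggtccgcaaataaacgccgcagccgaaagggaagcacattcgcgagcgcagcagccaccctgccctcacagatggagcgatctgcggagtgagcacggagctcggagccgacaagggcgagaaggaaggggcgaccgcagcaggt
Slc3a2: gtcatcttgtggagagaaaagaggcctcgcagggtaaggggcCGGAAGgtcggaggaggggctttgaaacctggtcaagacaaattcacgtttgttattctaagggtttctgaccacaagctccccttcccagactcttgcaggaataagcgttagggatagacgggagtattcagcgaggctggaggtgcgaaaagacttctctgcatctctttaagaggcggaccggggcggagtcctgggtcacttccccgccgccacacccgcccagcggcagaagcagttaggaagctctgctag
The stretches hold 20 and 15 CpG dinucleotides. GAGGAA is in 28.3% of all promoters on either strand and CGGAAG in 16.9%, and the match differs between the 2 genes. No amino acid response element core (TGATGNAA, in 4.0% of all promoters) was found in these windows.

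**Figure D2:**
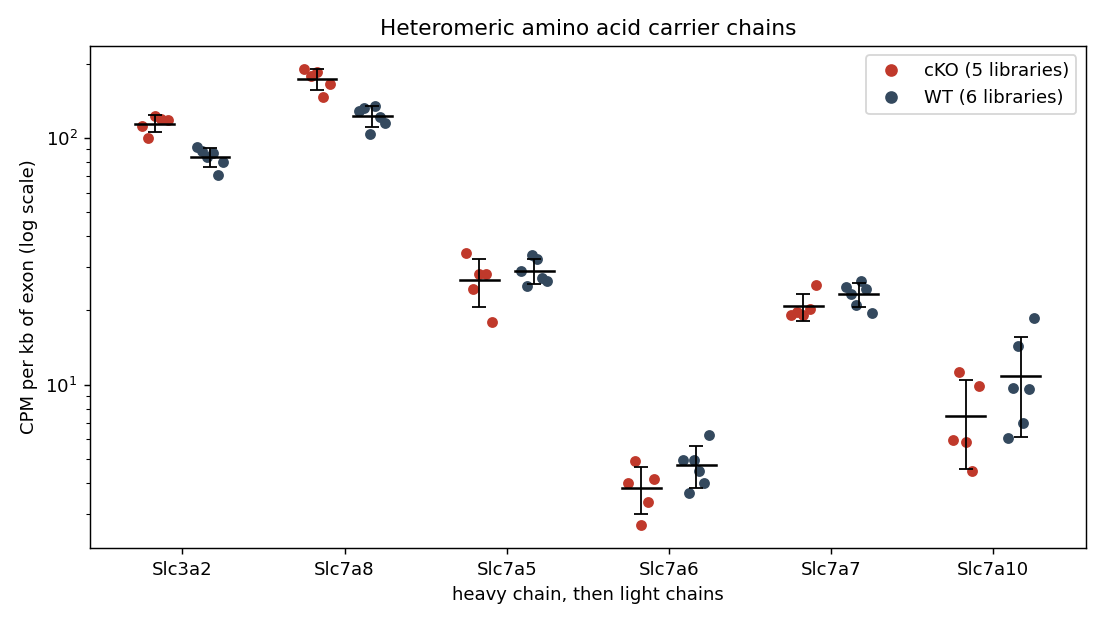
Level per kb of exon (CPM per kb, log scale) of the heavy chain Slc3a2 and of 5 light chains, 1 point per library, cKO in red left of WT in blue; bars give the mean and SD. Slc3a2 and Slc7a8 are apart between genotypes, and the other 4 light chains overlap.

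The other light chains of the heavy chain that are members did not pass. Slc7a5, which encodes LAT1, averaged 26.5 CPM per kb in cKO and 28.9 CPM per kb in WT, with a log2 fold change of -0.12 (edgeR adjusted p = 0.699). Slc7a7, the y+LAT1 chain that exchanges cationic for neutral amino acids in macrophages, averaged 20.8 CPM per kb in cKO and 23.3 CPM per kb in WT (-0.16, adjusted p = 0.454 in edgeR). Slc7a6 averaged 3.81 CPM per kb in cKO and 4.71 CPM per kb in WT. Slc7a10, the small neutral amino acid exchanger of astrocytes, averaged 7.49 CPM per kb in cKO and 10.9 CPM per kb in WT. The second heavy chain, Slc3a1, had a log2 fold change of -0.57 (adjusted p = 0.166 in edgeR); its exons overlap Prepl on the opposite strand, and those of Slc7a7 overlap Oxa1l, so the strand partners cannot be told apart where the counting may not use strand.

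Slc16a10 fell as well. It belongs to the monocarboxylate family but carries aromatic amino acids and thyroid hormones. It had 16.1, 10.4, 10.9, 11.8 and 12.3 CPM in cKO, while WT ran from 17.3 through a median of 22.3 to 23.3 CPM, and the groups did not overlap. The log2 fold change was -0.82 (SE 0.17, edgeR adjusted p = 0.00644), and it passed in all 21 alternatives with adjusted p between 4.13e-05 and 0.0272. Its mean raw count was 388.2 in cKO and 784.2 in WT, so it too was a member through WT.

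Slc25a27, the mitochondrial carrier UCP4 known mainly from neurons, had 11.38, 10.05, 14.98, 18.72 and 13.02 CPM in cKO. The WT libraries WT8, WT9 and WT15 had 18.2, 22.3 and 16.8 CPM, while WT13 had 32.4, WT16 27.5 and WT17 42.6 CPM. The last 3 libraries, which had the most neuronal marker RNA, were the highest, and the groups overlapped. Its log2 fold change of -0.97 (SE 0.23, edgeR adjusted p = 0.0144) became -0.49 (adjusted p = 0.354) without those 3 libraries, -0.58 (adjusted p = 0.085) with the marker level as a covariate, and -0.88 (adjusted p = 0.0526) without cKO4, so the call was lost in each.

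Slc46a1, the proton-coupled folate carrier, had 101.5, 89.0, 82.2, 80.6 and 82.4 CPM in cKO, while WT ran from 98.5 through a median of 109.0 to 122.1 CPM. cKO2 overlapped the lowest WT library, WT17. The log2 fold change was -0.34 (SE 0.09, edgeR adjusted p = 0.036). The call was lost when cKO4, cKO5, cKO6, cKO7, WT8, WT9, WT15 or WT16 was left out, with adjusted p between 0.0509 and 0.105, and was kept without WT13, WT16 and WT17 (-0.41, adjusted p = 0.0152).

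Of the other members that rose, Slc39a8 encodes ZIP8, which takes up zinc, manganese and iron. It had 44.9, 39.5, 42.7, 40.1 and 41.6 CPM in cKO, while WT ran from 21.5 through a median of 27.7 to 35.6 CPM, with no overlap. The log2 fold change was 0.54 (SE 0.13, edgeR adjusted p = 0.0208). The call was lost without cKO2 (adjusted p = 0.0574), cKO5 (0.0577) or WT16 (0.0538) and with library totals (0.0509).

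Slc35f6, a member of the nucleotide sugar family by its number and without a role given here, had 86.0, 89.4, 75.5, 80.6 and 76.6 CPM in cKO, while WT ran from 49.6 through a median of 61.8 to 76.3 CPM. WT13 reached into the cKO range. The log2 fold change was 0.41 (SE 0.11, edgeR adjusted p = 0.0344). This call was the least stable of the 8: it was lost in 12 of 21 alternatives, among them without any 1 of the 5 cKO libraries or of WT8, WT9, WT16 and WT17, with adjusted p between 0.0506 and 0.101. It is also the 1 of the 8 whose exons hold another annotated gene, the microRNA gene Mir5625.

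A further 3 members, chosen after their values were seen, had groups that did not overlap but did not pass. Slc10a7, a carrier tied to calcium handling and glycosylation, averaged 25.7 ± 2.54 CPM in cKO and 17.9 ± 2.75 CPM in WT (log2 fold change 0.53, edgeR adjusted p = 0.0527). It passed in 6 alternatives, among them DESeq2 (adjusted p = 0.0114), without WT8 (0.044) and without WT17 (0.0452), and had 0.48 (0.189) without WT13, WT16 and WT17. Slc25a51, the mitochondrial NAD carrier, averaged 92.8 ± 8.65 CPM in cKO and 74.8 ± 6.63 CPM in WT (0.31, edgeR adjusted p = 0.0674), and passed without WT15 (adjusted p = 0.0452) and with DESeq2 (0.0205), and had 0.21 (0.425) without WT13, WT16 and WT17. Slc38a2, the neutral amino acid carrier SNAT2 that cells induce on amino acid shortage, averaged 80.7 ± 8.16 CPM in cKO and 93.6 ± 5.06 CPM in WT (-0.21, edgeR adjusted p = 0.214).

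Of the 148 members, 11 had a mean of 500 or more counts in WT but not in cKO, and none the other way round. Such a member passed the limit through WT, so the 3 falls among them (Slc13a3, Slc16a10 and Slc25a27) cannot be read as a lean of the members towards lower. Among the other 137, 5 passed, of which 4 were higher and 1 lower. Just inside the limit were Slc25a35, Slc35a1 and Slc37a4 with mean counts of 517.2, 519.8 and 528.9, and just outside it Slc38a3, Slc8a3 and Slc25a20 with 457.0, 452.6 and 448.3. Of those 6, Slc38a3, a glutamine carrier of astrocytes, passed the test. It averaged 6.90 ± 1.33 CPM in cKO and 17.5 ± 9.92 CPM in WT (log2 fold change -1.34, edgeR adjusted p = 0.0148), with 31.4 CPM in WT13 and 28.9 CPM in WT17, and without WT13, WT16 and WT17 it had -0.60 (adjusted p = 0.358). It was also lost without cKO2 (adjusted p = 0.0508) or cKO6 (0.058).

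**Figure D3:**
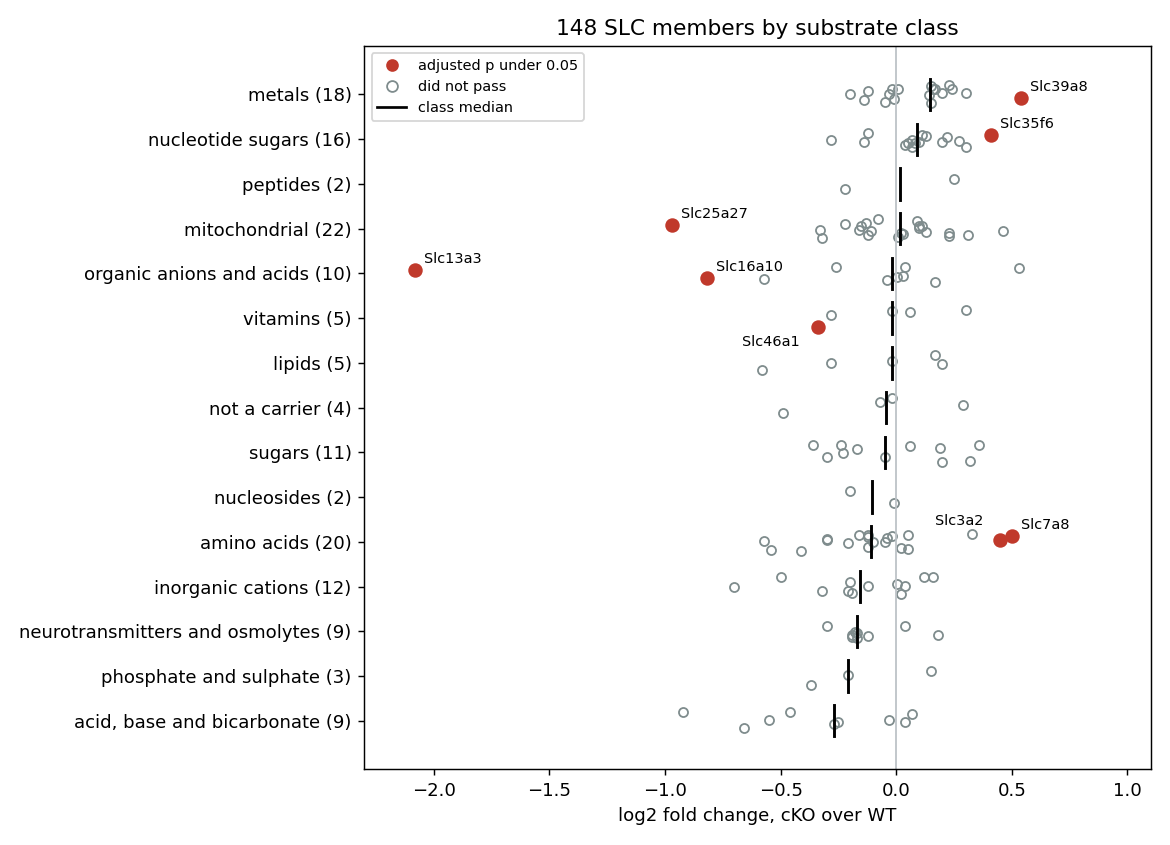
Log2 fold change, cKO over WT (x axis), of each of the 148 members by substrate class (rows, number of members in brackets); filled red points passed the adjusted p of 0.05, open points did not, and the black bar is the class median. Most members lie within 0.5 of 0, and Slc13a3 at -2.08 stands alone.

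Classes were set by family number. The 20 members of amino acid families held 2 that rose (Slc7a8 and Slc3a2) and none that fell, with a median log2 fold change of -0.11 and 14 of 20 below 0. The median became -0.02 when WT13, WT16 and WT17 were left out. Slc16a10, which also carries amino acids and fell, is counted with its own family. Among the 10 carriers of organic anions and acids, 2 fell (Slc13a3 and Slc16a10) and none rose, with a median of -0.02. Both were members through WT only, so their falls cannot be read as a lean of the class. The 5 vitamin carriers held 1 that fell, Slc46a1, and a median of -0.02.

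Among the 18 metal carriers, Slc39a8 rose, and the median was 0.14 with 11 of 18 above 0. No other metal carrier passed. Slc11a1 (NRAMP1), which moves iron and manganese out of the phagosome, averaged 181.6 ± 6.16 CPM in cKO and 197.2 ± 21.2 CPM in WT (log2 fold change -0.12). The 16 members of the nucleotide sugar family had a median of 0.09 with 13 of 16 above 0, and 1 rose, Slc35f6. Carriers of this family load the Golgi for glycosylation, but the class was set by family number and no role is given for Slc35f6. Of the 8042 genes of like level, 4563 were above 0. Without WT13, WT16 and WT17 the medians of the metal and nucleotide sugar classes were 0.07 and 0.02. The 22 mitochondrial carriers had a median of 0.02, with 1 that fell, Slc25a27, a member through WT only. The shares that passed were 5.56% of metal, 6.25% of nucleotide sugar and 4.55% of mitochondrial carriers, beside 4.29% of all genes and 7.30% of genes of like level.

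No member passed among the 12 carriers of inorganic cations, the 11 sugar carriers, the 9 carriers of acid, base and bicarbonate or the 9 of neurotransmitters and osmolytes. By unadjusted p under 0.05 they held 2, 3, 4 and 1 in that order, and DESeq2 called 1 of them, the sugar phosphate carrier Slc37a2. The medians were -0.16 for inorganic cations, -0.05 for sugars, -0.27 for acid, base and bicarbonate and -0.17 for neurotransmitters and osmolytes. Without WT13, WT16 and WT17 the medians of the last 2 were -0.06 and 0.02. The lowest value among them, Slc4a3, an anion exchanger of excitable cells, had a log2 fold change of -0.92 (edgeR adjusted p = 0.218) and 0.04 without those libraries, since it stood at 9.76 to 14.8 CPM in cKO and at 38.8 CPM in WT13, 21.8 CPM in WT16 and 39.5 CPM in WT17.

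In the remaining classes (lipids, peptides, nucleosides, phosphate and sulphate, and the 4 that are not carriers) no member passed, and DESeq2 called Slc27a1 and Slc44a2. The smallest unadjusted p was that of Slc27a1, a fatty acid carrier, which averaged 20.1 ± 3.95 CPM in cKO and 30.01 ± 7.12 CPM in WT (log2 fold change -0.58, edgeR adjusted p = 0.06). It passed in 5 alternatives, among them without cKO7 (edgeR adjusted p = 0.0307) and without WT15 (0.0237), and was at -0.35 (0.51) without WT13, WT16 and WT17. Of the smallest p in the other classes, the phosphate carrier Slc20a1 was at -0.37 (0.05 without WT13, WT16 and WT17), the taurine carrier Slc6a6 at 0.18 and the calcium exchanger Slc24a3 at -0.32, none past the threshold (edgeR adjusted p = 0.265, 0.215 and 0.123). The scaffold Slc9a3r2 was at -0.49 (edgeR adjusted p = 0.355).

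Of 11 carriers listed as microglial or macrophage genes, 10 were members. In this list 1 rose (Slc7a8), 2 fell (Slc13a3 and Slc46a1) and 7 did not pass, with a median log2 fold change of -0.06. Their summed level was 2234.1 to 2536.8 CPM in cKO and 1939.8 to 2398.0 CPM in WT. Over all 11 libraries the general microglial markers had a median of 0.31, beside the -0.06 of these carriers. With WT13, WT16 and WT17 left out the median of the carriers became -0.18, with 7 of 10 below 0. These carriers summed to 1939.8, 2067.7 and 2029.3 CPM in those libraries, and to 2272.1 to 2398.0 CPM in WT8, WT9 and WT15. A lower median was thus built into leaving them out and is no separate result. The median of the markers in that setting is not given here.

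Slc29a3, the lysosomal nucleoside carrier, was the third member by level per kb, at 96.9 CPM per kb in cKO and 97.3 CPM per kb in WT. It averaged 565.0 ± 25.9 CPM in cKO and 567.7 ± 52.95 CPM in WT (log2 fold change -0.01, edgeR adjusted p = 0.981). Slc37a2, a sugar phosphate carrier of macrophages, averaged 210.6 ± 16.1 CPM in cKO and 168.1 ± 27.3 CPM in WT (0.32, edgeR adjusted p = 0.0713), and passed without WT8 (adjusted p = 0.0291) or WT15 (0.0358), but was at 0.15 (0.525) without WT13, WT16 and WT17. The endolysosomal carriers of histidine and peptides did not pass: Slc15a4 was at 0.25 (edgeR adjusted p = 0.285) and Slc15a3 at -0.22 (adjusted p = 0.259). They were at 0.01 and -0.31 without WT13, WT16 and WT17. Slc11a1 was at -0.25 (adjusted p = 0.0587) in that setting. Slc15a3 passed when cKO2 was left out (-0.34, adjusted p = 0.0472), the library in which it was far higher than in the other cKO libraries, at 182.7 CPM against 121.6 to 134.8 CPM. The endosomal sodium-proton exchanger Slc9a9 was at 0.04 (adjusted p = 0.87 in edgeR), a sign that turned in 4 alternatives.

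Slc2a5, which encodes the fructose carrier GLUT5 and is known as a microglial marker, was not a member. It had 0, 0, 6, 0 and 14 counts in cKO and 12 counts in WT9, 24 in WT15 and 0 in the other 4 WT libraries. It lies on chromosome 4 (150119283 to 150144169), where its neighbours Eno1 and Rere, genes that most cells use, had mean counts of 15.1 and 13.9. Other coding genes nearby ran from 0.0 for Slc2a7 and Car6 to 909.1 for Spsb1, with 56.7 for the adjacent Gpr157. With Eno1 and Rere so low, Slc2a5 was treated as not measured, and nothing is said of its level.

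**Figure D4:**
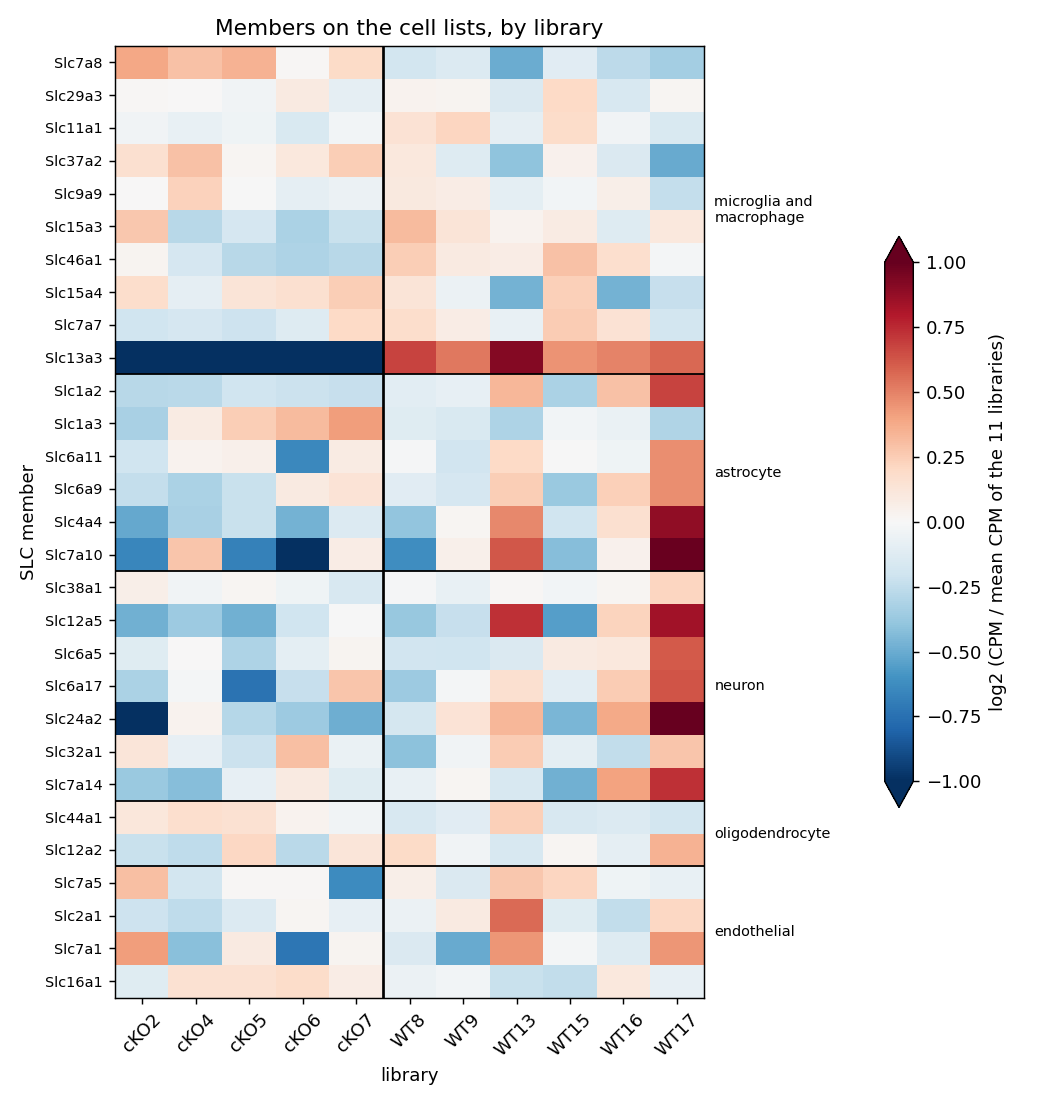
Members on the microglial, astrocyte, neuron, oligodendrocyte and endothelial lists that are reported by name (rows) by library (columns, 5 cKO left of 6 WT). The mural and fibroblast list is not shown. Colour is log2 of the CPM over the gene's mean over the 11 libraries, red above and blue below. The scale ends at 1 and -1, and values beyond it, such as Slc13a3 in cKO, have the end colours. WT13, WT16 and WT17 are red for most astrocyte and neuron carriers, and Slc13a3 is blue in all 5 cKO libraries.

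None of the 8 neuronal or 6 astrocytic carriers passed, and at an unadjusted p under 0.05 there were 1 and 3. DESeq2 called 1 of the 14, Slc1a2. The median log2 fold change was -0.24 for the neuronal and -0.30 for the astrocytic carriers. Slc38a1 was the largest of the 8 neuronal carriers and a large part of their sums. It had 292.7 CPM in WT17 and 239.7 to 256.6 CPM in the other WT libraries. With Slc38a1 included, the neuronal carriers summed to 475.3 to 509.6 CPM in cKO. In WT they summed to 484.2, 497.4 and 476.9 CPM in WT8, WT9 and WT15 and to 593.0 CPM in WT13, 575.8 CPM in WT16 and 746.5 CPM in WT17. The astrocytic carriers summed to 500.4 to 623.7 CPM in cKO, and in WT to 563.2, 568.9 and 531.9 CPM in the first 3 and 712.5, 684.7 and 866.1 CPM in the last 3. Without the last 3 WT libraries the medians were -0.00 and -0.03. Those were also the libraries with the highest pooled marker level, so a move towards 0 was built into leaving them out. The cause of the negative medians was not tested.

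Of the 8 neuronal carriers, 7 were highest in WT13, WT16 or WT17, as were 5 of the 6 astrocytic carriers and 61 of all 148 members. Slc12a5, the chloride exporter KCC2 of neurons, had 57.6, 62.5, 57.7, 69.9 and 80.3 CPM in cKO. In WT it had 54.8 to 68.5 CPM in WT8, WT9 and WT15 and 133.4 CPM in WT13, 93.9 CPM in WT16 and 144.0 CPM in WT17 (log2 fold change -0.50, edgeR adjusted p = 0.351). Slc1a2, the main astrocytic glutamate carrier GLT-1, had 234.8 to 248.5 CPM in cKO, 228.3 to 269.0 CPM in WT8, WT9 and WT15, and 359.1 CPM in WT13, 349.2 CPM in WT16 and 456.0 CPM in WT17 (-0.41, edgeR adjusted p = 0.113). It passed without WT15 (adjusted p = 0.0155) and with DESeq2 (0.0328), and was at -0.08 (0.85) without WT13, WT16 and WT17.

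Slc1a3, the second astrocytic glutamate carrier GLAST, went the other way. It had 101.3, 134.4, 150.6, 158.1 and 169.4 CPM in cKO, while WT ran from 102.7 through a median of 115.3 to 124.4 CPM. All cKO libraries but cKO2 were above all WT libraries. The log2 fold change was 0.33 (edgeR adjusted p = 0.0902), and it passed when cKO2 was left out (0.43, adjusted p = 0.0107). Without WT13, WT16 and WT17 it was at 0.26 (0.37). The bicarbonate carrier Slc4a4 was at -0.55 (adjusted p = 0.0971 in edgeR) and passed without WT8 (0.0331) or WT15 (0.0477), and the neuronal calcium exchanger Slc24a2 was at -0.70 (adjusted p = 0.128) and passed without WT15 (0.0422). Without WT13, WT16 and WT17 these 2 were at -0.15 (0.875) and -0.28 (0.798). Of the glycine and GABA carriers named here, Slc6a11 was at -0.19 and Slc6a5 at -0.17. Slc6a9 was at -0.18 and had the opposite sign, 0.11, without WT13, WT16 and WT17. Slc6a17, a vesicular amino acid carrier, was at -0.30 and the glutamine carrier Slc38a1 at -0.05.

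The carriers listed for other cells did not pass either. Of the 4 on the endothelial list, the glucose carrier Slc2a1 was at -0.23, the cationic amino acid carrier Slc7a1 at -0.12 and the monocarboxylate carrier Slc16a1 at 0.17, beside Slc7a5. Of the 2 on the oligodendrocyte list, the choline carrier Slc44a1 averaged 91.8 ± 5.38 CPM in cKO and 81.9 ± 9.89 CPM in WT (log2 fold change 0.17), and the chloride importer Slc12a2 averaged 73.1 ± 11.9 CPM in cKO and 79.7 ± 10.8 CPM in WT (-0.12). Of the 2 on the mural and fibroblast list, the folate carrier Slc19a1 was at 0.30 and the sulphate carrier Slc26a2 at 0.15. The edgeR adjusted p of these 7 named genes lay between 0.354 and 0.836.

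By their sums, the neuronal markers were highest in the same 3 libraries, and the astrocytic ones in WT13 and WT17. Single markers differed. The neuronal Snap25, Stmn2, Uchl1 and Prph and the astrocytic Sox9 and Aldh1l1 were highest in a cKO library, and S100b in WT15. The other markers of both lists were highest in WT13 or WT17. Nefh, Nefl and Nefm led the neuronal sum, at 1240.7, 519.6 and 572.1 CPM in WT17. The 14 neuronal markers summed to 1277.6 to 1505.1 CPM in cKO, to 1319.6 to 1564.4 CPM in WT8, WT9 and WT15, and to 2543.2 CPM in WT13, 2069.9 CPM in WT16 and 2989.0 CPM in WT17, and none of the 14 passed. The 12 astrocytic markers summed to 1353.8 to 1528.5 CPM in cKO, to 1854.1 CPM in WT13 and 1901.6 CPM in WT17, and to 1349.1 to 1488.4 CPM in the other 4 WT libraries, WT16 being the highest of those, and none passed. No neuronal or astrocytic marker was at 0. Of 11 endothelial markers tested, 2 fell, with sums of 43.7 to 51.3 CPM in cKO and 52.9 to 176.0 CPM in WT; Cldn5 was at 0 in every library and was treated as not measured. The 11 oligodendrocyte markers tested summed to 4904.2 to 5638.2 CPM in cKO and to 4828.3 to 6259.0 CPM in WT, and none passed. Of 6 mural markers tested 1 fell, with sums of 21.8 to 40.8 CPM in cKO and 27.4 to 127.7 CPM in WT, and the 7 fibroblast markers summed to 81.7 to 161.1 CPM in cKO and 86.7 to 193.7 CPM in WT, with none past the threshold.

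**Figure D5:**
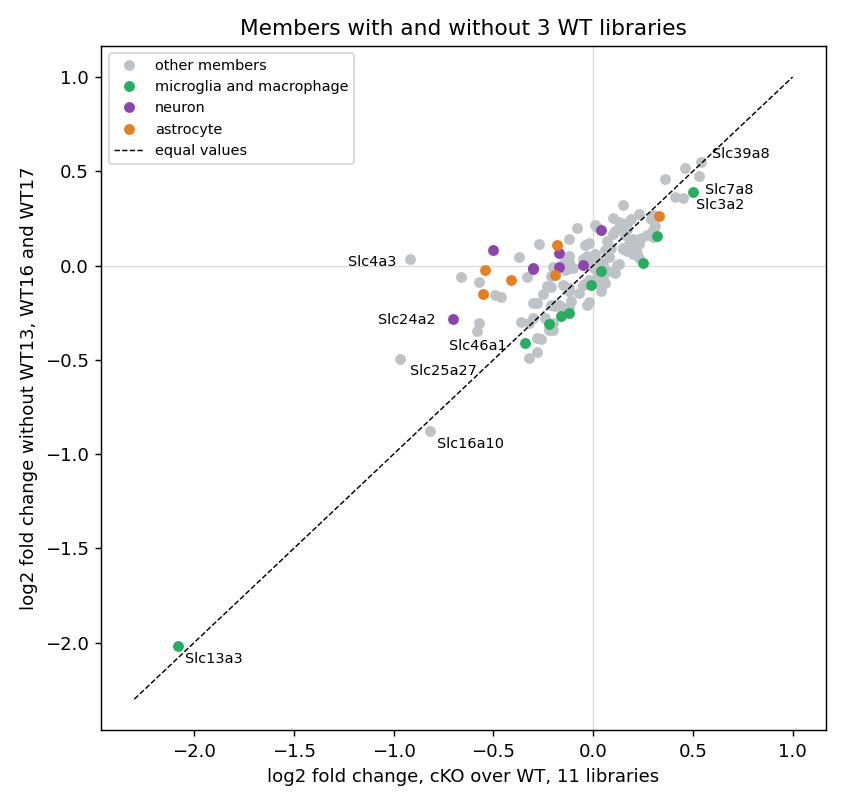
Log2 fold change (cKO over WT) of each of the 148 members in all 11 libraries (x axis) and without WT13, WT16 and WT17 (y axis), coloured by cell list; the dashed line marks equal values. Slc13a3, Slc16a10, Slc7a8, Slc3a2 and Slc39a8 stay near the line, while Slc4a3, Slc24a2 and Slc25a27 move towards 0.

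Without WT13, WT16 and WT17, 10 members passed, of which 3 were higher and 7 lower, and 6 of them were among the 8. The share was 6.76% of members, beside 3.21% of the 16409 genes tested in that setting. The share of genes of like level in that setting is not given here. Over all 11 libraries it was 7.30%, against 4.29% of all genes, so the gap cannot be read as particular to the members. Over all those genes 164 were higher and 363 lower, so more were lower there too. Members that passed there and not in the main test of all 11 libraries were the choline carrier Slc44a2 (-0.38, edgeR adjusted p = 0.00622) and the lysosomal carrier Slc46a3 (-0.46, adjusted p = 0.00225). So were Slc24a3 (-0.49, adjusted p = 0.0118) and the monocarboxylate family member Slc16a6 (-0.39, adjusted p = 0.0438). In the main test these 4 were at -0.28 for Slc44a2, -0.28 for Slc46a3, -0.32 for Slc24a3 and -0.26 for Slc16a6. Slc44a2, for example, averaged 235.5 ± 26.1 CPM in cKO and 285.1 ± 23.7 CPM in WT. With all 11 libraries and the marker covariate, Slc44a2, Slc46a3 and Slc24a3 also passed (edgeR adjusted p = 0.00202, 0.0107 and 0.0108). They passed with library totals too (0.00428, 0.0262 and 0.0306). The covariate called 9 members, 3 higher and 6 lower, or 6.08% beside 3.99% of all genes.

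Per kb of exon, the 8 members with the highest levels were Slc7a8, Slc3a2, Slc29a3, Slc25a5, Slc25a4, Slc48a1, Slc11a1 and Slc39a1. Apart from the first 2, none of these passed. The ADP/ATP carriers of the mitochondrion, Slc25a5 and Slc25a4, averaged 86.3 and 74.2 CPM per kb in cKO and 84.3 and 69.7 CPM per kb in WT. Slc25a5 is uncertain because copies of it elsewhere in the genome can share its reads. The haem carrier Slc48a1 averaged 61.6 CPM per kb in cKO and 54.98 CPM per kb in WT (log2 fold change 0.16), and the zinc carrier Slc39a1 averaged 53.8 CPM per kb in cKO and 45.7 CPM per kb in WT (0.23). Exons of 48 members overlap another annotated gene, most often on the opposite strand, among them Slc48a1 (Hdac7), Slc15a3 (Tmem132a) and Slc6a9 (B4galt2).

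Transporters outside the SLC symbols were read beside the members. The share that passed was 4.55% of SLC-like carriers, 7.69% of ABC transporters and 7.14% of ion pumps. Over all genes tested it was 4.29%, and over genes of like level to the members 7.30%. Of 22 SLC-like carriers tested, 1 fell. This was Spns2, the sphingosine 1-phosphate exporter, which averaged 46.7 ± 6.55 CPM in cKO and 99.8 ± 14.4 CPM in WT (log2 fold change -1.10, edgeR adjusted p = 2.11e-06) and passed in all 21 alternatives. Of 26 ABC transporters tested, 2 fell, Abcc1 (-0.59, edgeR adjusted p = 0.0234) and Abcb4 (-0.60, adjusted p = 0.0287), and none rose. Abcc1 was lost without cKO5, cKO6 or WT16 (adjusted p between 0.0511 and 0.06) and without WT13, WT16 and WT17 (0.06), and Abcb4 without cKO4, cKO6, cKO7, WT8 or WT9 (between 0.0528 and 0.0939). None of 6 organic anion carriers of the Slco family passed. The microglial member of that family, Slco2b1, averaged 1998.0 ± 82.9 CPM in cKO and 1654.4 ± 236.4 CPM in WT (0.27, edgeR adjusted p = 0.0761), and passed without WT15 (0.0177), but was at 0.10 (0.545) without WT13, WT16 and WT17.

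Among 14 ion pumps, 1 rose, Atp13a3 (0.54, edgeR adjusted p = 0.035), a call lost in 10 of 21 alternatives, with adjusted p up to 0.138 when a library was left out (cKO4, cKO5, cKO6, WT13, WT16 or WT17), and at 0.36 (0.34) without WT13, WT16 and WT17. The list of lysosomal amino acid sensing, the pathway by which mTORC1 reads amino acids, held 21 genes tested. Of these 9.52% passed, beside 4.29% of all genes and 7.30% of the genes of like level to the members. The 2 that passed rose, and none fell. These were Rheb, the small GTPase that activates mTORC1 (0.48, edgeR adjusted p = 0.0329, lost in 8 of 21 alternatives, among them without cKO2, cKO4, cKO5, cKO7, WT9 or WT16, adjusted p between 0.0606 and 0.0992), and Ddit4, an inhibitor of mTORC1. Ddit4 averaged 217.4 ± 140.8 CPM in cKO and 23.4 ± 9.13 CPM in WT (3.22, adjusted p = 0.00894), and did not pass without WT13, WT16 and WT17 (3.65, adjusted p = 0.0779). Slc38a9, the arginine sensor of the same pathway and a member, was at 0.02 (edgeR adjusted p = 0.973). None of 16 genes of iron, zinc and copper handling passed, and 3 had an unadjusted p under 0.05.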

How the data were processed

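Per the labels' protocols, RNA from Tmem119-Cre/ERT2 RiboTag pulldowns was extracted with a Direct-zol kit, and a stranded KAPA kit made the libraries. Reads went through bcl2fastq 2.17, FastQC and Trimmomatic with mm10 as the build, per the submitters' processing notes. For the aligner, the counter, its use of strand and its gene models, nothing is given in the sources used here. The table deposited by the authors holds raw counts for 39017 genes in 11 libraries. Per library 73.5 to 83.9% of low counts were even, as when both mates are counted. Symbols were found for 37607 identifiers, coordinates are those of GENCODE M21, and RefSeq promoters (GRCm38.p6) were found for 115 of the 148 members.

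With R 4.3.3 and edgeR 4.0.16, genes kept by filterByExpr (minimum count 10, minimum total 15; 16025 genes) were scaled by TMM, and cKO was tested against WT by the quasi-likelihood F test with robust estimation, with Benjamini-Hochberg adjustment over all genes kept and a threshold of 0.05. CPM values are means ± SD over libraries. The procedure was tested on simulated data. Alternatives used DESeq2 1.42.0, limma 3.58.1 (voom), other scalings and filters, a covariate of the pooled level of neuronal, astrocytic and oligodendrocyte markers, and sets of libraries and member limits. The precision is limited by the number of libraries (5 cKO and 6 WT), and no 2 libraries of a genotype agreed within sampling noise.

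The members, gene lists, substrate classes (by family number), marker lists and libraries left out were chosen with earlier results of these data known, and the promoter motifs after the results here were seen. Genes were named by rule: members past the threshold; Slc2a5 and Slc13a3; microglial carriers and up to 5 members of each other cell list by mean CPM; the 3 members just inside the limit and the 3 rows just outside it; the 8 highest per kb; the smallest p of each class of 3 or more; Kdm6a; Slco2b1; and up to 4 genes past the threshold of each other list. Slc3a1, Slc4a3, Slc7a6, Slc7a10, Slc7a14, Slc10a7, Slc16a6, Slc24a2, Slc25a51, Slc32a1, Slc38a2, Slc38a9, Slc44a2 and Slc46a3 were chosen after their values were seen. Another member that the rule selects is not reported here, and stays in the list statistics. Members that the rule does not select are given by counts and ranges.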

Additional observations from a re-analysis of the deposited data

Results flagged for a closer look

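In 116 groups of 5 cKO or 6 WT values, 8 libraries stood apart by Dixon's ratio on log2 CPM (the gap to the nearest library over the range of the group), where chance gives about 1 in 20, or 5.8. Slc13a3 was low in cKO6, at 7.97 CPM against 9.45 to 9.98 CPM in the other cKO libraries (ratio 0.756), a gap within cKO only that left it far under WT. Slc16a10 was low in WT17, at 17.3 CPM against 21.8 to 23.3 CPM (0.778). Slc15a3 was high in cKO2, at 182.7 CPM against 121.6 to 134.8 CPM (0.748). Slc7a7 was high in cKO7, at 84.1 CPM against 63.7 to 67.3 CPM (0.8). Slc44a1, a choline carrier, was high in WT13, at 101.9 CPM against 76.1 to 79.8 CPM (0.838). Slc38a1, a glutamine carrier, was high in WT17, at 292.7 CPM against 239.7 to 256.6 CPM (0.658). Slc25a5 was low in WT17, at 99.8 CPM against 144.0 to 149.4 CPM (0.909). Slc16a6 was low in WT13, at 69.0 CPM against 92.8 to 108.1 CPM (0.66).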

How the results depend on the processing

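Over 68 named results, 1288 values kept direction and side of the threshold, 60 lost a call, 38 gained one and 42 changed sign, each of the last for a value that had not passed. The count over all genes was 687, against 1232 with DESeq2 and 437 to 945 with 1 library left out. The count of members was 8, against 14 with DESeq2, 5 with a limit of 1000 counts, 5 with a mean of 500 in both genotypes and 5 to 13 with 1 library left out. Signs changed with library totals for Slc9a9 (-0.04), Slc35a1 (-0.03), Slc25a20 (-0.02), Slc25a5 (-0.05), Slc32a1 (-0.05) and Slc38a9 (-0.07); with the marker covariate for Slc9a9 (-0.02), Slc6a9 (0.03), Slc7a1 (0.07), Slc25a35 (0.13), Slc35a1 (-0.02) and Slc25a5 (-0.07); and without WT13, WT16 and WT17 for Slc9a9 (-0.03), Slc38a1 (0.0031), Slc12a5 (0.08), Slc4a3 (0.04), Slc6a9 (0.11), Slc7a1 (0.14), Slc25a35 (0.20), Slc25a5 (-0.05) and Slc20a1 (0.05). With 1 library left out, log2 fold changes on both sides of 0 ran from -0.04 to 0.04 for Slc29a3, -0.02 to 0.07 for Slc9a9, -0.27 to 0.01 for Slc7a1, -0.19 to 0.07 for Slc25a35, -0.10 to 0.15 for Slc35a1, -0.01 to 0.18 for Slc25a20, -0.05 to 0.07 for Slc25a5, -0.03 to 0.11 for Slc32a1 and -0.05 to 0.09 for Slc38a9. The cause was not tested, except that fewer members enter under the stricter limits. No paired analysis was possible because the genotypes share no replicate number. SLC rows under the limit of 500 counts were described only where they lay next to it, and the 11 libraries limit the precision of every fold change.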
